A study of Homo sapiens with 9 samples.

Results

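The human mitochondrial chromosome carries 37 genes in GENCODE release 29: 13 mRNAs, 2 rRNAs and 22 tRNAs. The members described here are the rows of the count table whose Ensembl identifiers lie on that chromosome, which gave 28 of 23727 rows: all 13 mRNAs, both rRNAs and 13 of the tRNAs. Of these 28 rows, 21 passed the filter on low counts, namely all 15 mRNAs and rRNAs and 6 tRNAs. The other 9 tRNA genes (MT-TV, MT-TN, MT-TC, MT-TK, MT-TG, MT-TR, MT-TH, MT-TS2 and MT-TL2) were not analysed here.

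RNA was sequenced from LN229, an established human glioblastoma cell line, in 9 libraries. The untreated group was collected at 0 h, and the other groups after 8 h and after 24 h with 500 µM sodium formate, with 3 libraries in each. All groups grew in the same medium (10% fetal bovine serum, 2 mM glutamine, 17 mM glucose) and were prepared with the same kit for stranded mRNA libraries, which selects RNA by its poly(A) tail. Formate, a 1-carbon unit of folate metabolism, is added to the initiator methionyl-tRNA of mitochondria in the form of a formyl group.

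There was no untreated group at 8 h or 24 h, so formate and time in culture cannot be told apart. In the RNA of a whole dish, more RNA per cell and a larger share of cells rich in that RNA cannot be told apart either. The labels number the replicates 1 to 3 in every group and do not say whether they were separate cultures, so p-values measure the spread between these libraries, which may be technical. One label spells the line LN299, and the growth protocol's LN229 was used.

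Mitochondrial DNA is transcribed by its own polymerase into long transcripts of each strand. Most genes are read from the heavy strand; the light strand gives MT-ND6 and a few tRNAs. The tRNAs lie between the other genes, and their removal by RNases frees the mRNAs and rRNAs, most of which then receive a poly(A) tail. The mRNA of MT-ND6 is known to lack such a tail. The proteins made are core subunits of the respiratory chain (complexes I, III and IV) and of ATP synthase, while the polymerase, the processing enzymes and the translation factors are encoded in the nucleus. Of the 37 genes, GENCODE placed 28 on the strand read from the heavy strand and 9 on the other.

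The sequences of this chromosome show where mRNAs end inside a codon and where neighbouring genes share bases. Of the 13 mRNAs, 6 end inside a codon, so that the poly(A) tail has to complete their stop codon. Their last bases are given from GENCODE 29 transcripts on GRCh38, 5′ to 3′, with the bases past the last whole codon in capitals.
MT-ND1: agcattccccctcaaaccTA
MT-ND2: tttatactaataatcttaT
MT-CO3: atctattgatgagggtctT
MT-ND3: ggattagactgaaccgaaT
MT-ND4: attaccgggttttcctctT
MT-CYB: aaaatactcaaatgggccT

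Those 6 ends lie at chrM:4243-4262, chrM:5493-5511, chrM:9972-9990, chrM:10386-10404, chrM:12119-12137 and chrM:15869-15887, all on the plus strand. In 2 places, a pair of coding sequences overlaps on a shared mRNA. The overlap of MT-ATP8 with MT-ATP6 is 46 bases long (chrM:8527-8572), and that of MT-ND4L with MT-ND4 is 7 bases long (chrM:10760-10766). Both are shown in capitals with 15 bases on each side, and each begins with the start codon of the second gene and ends with the stop codon of the first.
MT-ATP8/MT-ATP6: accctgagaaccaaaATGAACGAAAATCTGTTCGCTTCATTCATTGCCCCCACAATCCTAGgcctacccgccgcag
MT-ND4L/MT-ND4: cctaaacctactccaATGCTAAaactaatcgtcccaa

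The libraries held 22222298 to 25848242 counts. Glial and neural markers fixed for the check of the label were present: VIM stood at 3199 to 6284 CPM (the counts of a gene relative to the TMM-scaled total of its library), NES at 888 to 1011 CPM and SOX2 at 67.2 to 103 CPM. GFAP, the astrocyte filament, was near 0 in every library (0.129 to 0.426 CPM). PTPRC, EPCAM, CDH1 and PECAM1, which mark immune, epithelial and endothelial cells, did not exceed 0.133 CPM. Of the other markers of these types, CD14 stood at 0.154 to 0.481 CPM, VWF at 0.308 to 1.58 CPM and KRT8 at 13.5 to 23.0 CPM. The mesenchymal markers CD44 (704 to 1124 CPM) and FN1 (3272 to 9461 CPM) were high, and COL1A1 was low (2.37 to 5.66 CPM). The untreated replicate 1 library stood apart from the rest in several ratios between mitochondrial genes, given with those ratios, and had the lowest TMM factor (0.92, where the highest was 1.065).

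Mitochondrial genes took about 1% of the counts in untreated cells and in cells given formate for 8 h, and 1.68% ± 0.128 (SD, n = 3) after 24 h. In the untreated libraries the share was 0.924%, 0.865% and 1.38% for replicates 1, 2 and 3 (mean 1.06% ± 0.282, n = 3). After 8 h it was 1.08%, 0.725% and 1.43% (mean 1.08% ± 0.354, n = 3). After 24 h it was 1.56%, 1.65% and 1.81%. Every 24 h library lay above every untreated and 8 h library, while the 8 h range enclosed the untreated range. Counting error was far smaller than the spread between libraries: the exact (Clopper-Pearson) 95% interval of the lowest share ran from 0.722% to 0.729%, and it covers counting error only.

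The share differed between replicate numbers in a like way at 0 h and 8 h, and in part at 24 h. Replicate 3 was highest in all 3 groups, while replicate 2 was lowest at 0 h and at 8 h and replicate 1 at 24 h. Gene by gene, replicate 2 was the lowest library for 11 of the 15 mRNAs and rRNAs at 0 h and for all 15 at 8 h. At 24 h replicate 2 was the lowest for 8 and replicate 1 for 6. Between libraries of the same number, the 24 h share was 1.69, 1.91 and 1.31 times the untreated share for replicates 1, 2 and 3. The 8 h share was 1.16, 0.839 and 1.04 times the untreated share, on both sides of equality. MALAT1, a nuclear long RNA looked at after its values were seen, had 132, 146 and 284 CPM in the untreated libraries, 156, 134 and 273 CPM after 8 h, and 154, 255 and 255 CPM after 24 h. Its part in the differences between libraries was not tested.

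**Figure D1:**
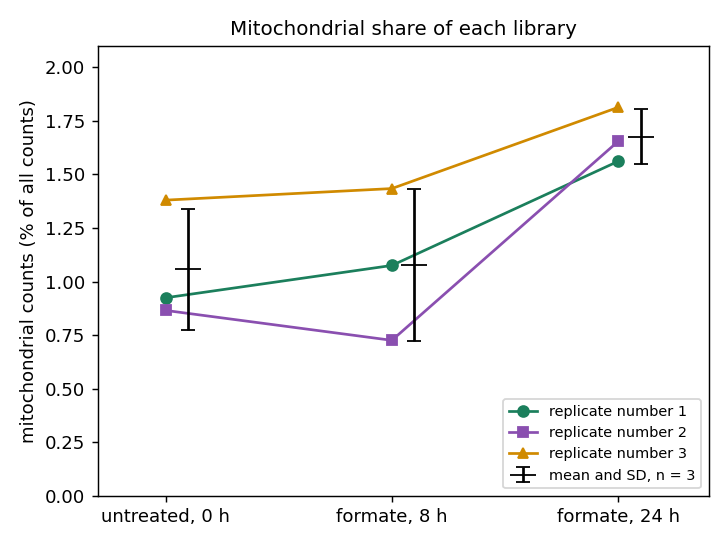
Percent of each library's counts on mitochondrial genes (vertical axis, from 0) in untreated cells and after 8 h and 24 h with formate; lines join libraries with the same replicate number, and black bars are the mean and SD of 3 libraries. The 24 h libraries sit between 1.56% and 1.81%, above all 6 others, which lie between 0.725% and 1.43%.

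Levels of different genes were compared as CPM per kilobase of annotated transcript. In untreated cells the 5 highest were MT-CO3 (1604 ± 362 CPM per kilobase, SD, n = 3), MT-CO2 (1490 ± 292), MT-ND4 (1489 ± 411), MT-ATP6 (1324 ± 290.2) and MT-CO1 (1202 ± 326). Within these 5, neighbours in the order did not differ by more than their SD. The step to the next gene was larger than the SD of either. In the middle stood MT-CYB at 708 ± 155, MT-ND4L at 693 ± 353, MT-ND2 at 588 ± 127, MT-ND3 at 565 ± 88.2, MT-ATP8 at 476 ± 160.1, MT-RNR2 at 435 ± 134 and MT-ND1 at 395 ± 104. The lowest levels were those of MT-ND5 (238 ± 89.0), MT-ND6 (184 ± 70.5) and MT-RNR1 (162 ± 51.1), again with neighbours closer than their SD, although the step from MT-ND1 to MT-ND5 was larger than the SD of either.

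The top and the bottom of the order held in every library, and its middle shifted. The 5 highest genes kept ranks 1 to 5 and the 3 lowest ranks 13 to 15, while MT-ND4L ranged from rank 6 to 11, MT-ND3 from 7 to 11 and MT-ATP8 from 8 to 12. MT-ND4 was first of the 15 genes in 6 libraries, the 24 h ones among them, and MT-CO3 in the other 3. MT-RNR1, the rRNA of the small ribosomal subunit, was last in 8 of 9 libraries. Only in untreated replicate 1 was another gene last, and that gene was MT-ND5. The selection of RNA by poly(A) tail precedes these values, so a level here is that of the RNA the kit captured. Nor is a level a count of molecules. MT-ATP8 and MT-ATP6 share an mRNA, yet stood at 476 and 1324 CPM per kilobase in untreated cells. MT-ND4L and MT-ND4, which share another, stood at 693 and 1489. What set these gaps was not tested.

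**Figure D2:**
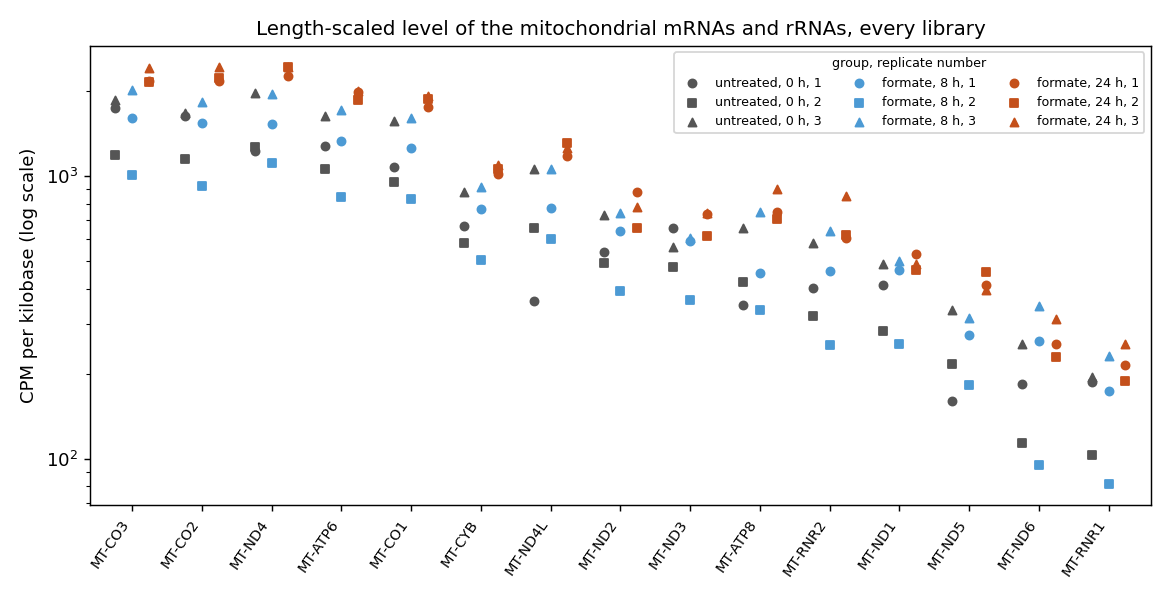
CPM per kilobase (log axis) of the 15 mitochondrial mRNAs and rRNAs in each of the 9 libraries, ordered by the untreated mean; colours are the groups and symbols the replicate numbers. The 24 h libraries are the top points for most genes, while the 8 h points spread over the untreated ones.

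After 24 h, the fitted level of all 15 mRNAs and rRNAs was above that of untreated cells, against 50.9% of all 15273 tested genes. The median log2 fold change of the 15 was 0.58 (range 0.31 to 0.85), where that of all tested genes was 0.01. By edgeR's quasi-likelihood test over the 9 libraries, none of the 15 had an adjusted p under 0.05, where 4.25% of all genes did in either direction; their adjusted p-values ran from 0.078 to 0.40. At an unadjusted p under 0.05 stood 8 of the 15, all higher, where 13.7% of all genes were higher at that level. That count was 3 without untreated replicate 2, 4 without 24 h replicate 3, 5 without untreated replicate 1 or 24 h replicate 2, and 12 without 8 h replicate 2. The share of all genes at that level was not counted in these fits. Over the whole table, the genes with an adjusted p under 0.05 numbered 574, 0, 356, 0 and 445 in them, in that order, and 649 in the full fit. For 10 of the 15, every 24 h library lay above every untreated one, as for 15.9% of all genes. For 14 of the 15, the 24 h library was above the untreated one in all 3 pairs with the same number, as for 27.3% of all genes. The 15 genes moved together between libraries, with untreated replicate 3 the highest of its group for 14 of them. Such counts are therefore not 15 separate observations.

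With the replicate number as a block, 14 of the 15 rose at 24 h (adjusted p from 0.0037 to 0.0482, edgeR), where 12.6% of all genes rose. The gene that missed was MT-ND1, at an adjusted p of 0.079. The median log2 fold change in that fit was 0.62. The standard error of the typical gene was 0.14 with the block and 0.23 without it. The count with the block rested on single libraries, and the share of all genes that rose in each fit is given in brackets. It was 4 without the 24 h replicate 2 library (8.39%) and 9 without the untreated replicate 2 library (7.71%). It was 10 without the 24 h replicate 1 library (8.27%) or the 8 h replicate 1 library (10.8%). Under other scalings it was 13 or 15 (12.1% to 17.4%). Without the block, leaving out the untreated replicate 3 library gave 3 genes (MT-ND4L, MT-ND4 and MT-ND5), where 418 of all tested genes passed. The median log2 fold change of the 15 then was 0.77, against 0.45 without the untreated replicate 2 library. DESeq2, without the block, gave 2 (MT-ND4 and MT-ND5), where 1656 of all tested genes passed in either direction.

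**Figure D3:**
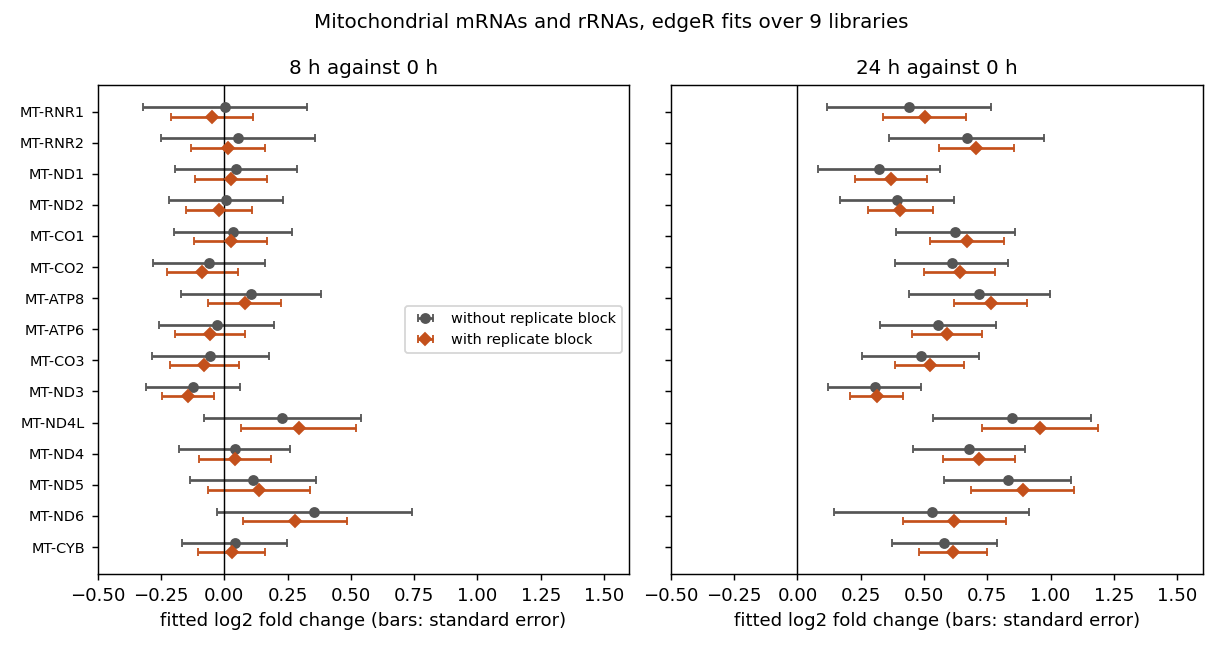
Fitted log2 fold change (horizontal axis; bars are the standard error of the edgeR fit) of the 15 mRNAs and rRNAs at 8 h (left) and 24 h (right) against untreated cells, without (grey circles) and with (red diamonds) the replicate number as a block. At 24 h all points lie above 0, from 0.31 to 0.85 without the block; at 8 h they lie from -0.12 to 0.35.

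MT-RNR2, at chrM:1671-3229 (plus strand), encodes the rRNA of the large ribosomal subunit. It had 628, 499 and 908 CPM in untreated replicates 1, 2 and 3, 718, 393 and 1002 CPM after 8 h, and 943, 964 and 1326 CPM after 24 h. All 24 h values were above the untreated ones, and the 8 h values spread around both sides of them. The log2 fold change at 24 h was 0.67 ± 0.31 (SE), with an adjusted p of 0.19 by edgeR, and 0.71 ± 0.15 with the block, where the adjusted p was 0.00626.

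MT-RNR1 (chrM:648-1601) had 178, 98.1 and 186 CPM in untreated cells, 166, 77.8 and 220 CPM after 8 h, and 205, 179.7 and 244 CPM after 24 h. The lowest 24 h library lay below the highest untreated one. Its log2 fold change at 24 h was 0.44 ± 0.32 (SE), with an adjusted p of 0.394, and 0.50 with the block (adjusted p 0.0445, edgeR). Without untreated replicate 2 it was 0.20.

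Complex I, which takes electrons from NADH, has 7 of the 13 mRNAs. MT-ND4 (chrM:10760-12137) had 1699, 1749.9 and 2705 CPM in untreated cells, 2118, 1529 and 2689 CPM after 8 h, and 3124, 3351 and 3363 CPM after 24 h. The 24 h libraries stood together above all the others, while both other groups ranged widely. The log2 fold change at 24 h was 0.68 ± 0.22 (SE, adjusted p 0.0940, edgeR), and 0.72 with the block (adjusted p 0.00485).

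MT-ND5 (chrM:12337-14148), the longest of the mRNAs at 1812 bases, had the smallest adjusted p of the group without the block (0.0780, edgeR). It had 291, 393 and 607 CPM in untreated cells, 497, 331 and 570 CPM after 8 h, and 745, 831 and 719 CPM after 24 h. Its log2 fold change at 24 h was 0.83 ± 0.25 (SE), and 0.89 with the block (adjusted p 0.00997). All 24 h libraries lay above all others, and the untreated replicate 1 library was the lowest of the 9. Without that library the log2 fold change was 0.60.

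MT-ND4L (chrM:10470-10766), which shares its mRNA with MT-ND4, had the largest fitted difference, 0.85 ± 0.31 (SE, log2, adjusted p 0.125; 0.96 with the block, adjusted p 0.0118, edgeR). It had 107, 195 and 316 CPM in untreated cells, 230, 178 and 316 CPM after 8 h, and 349, 389 and 374 CPM after 24 h. The size rested on the untreated replicates, which spread from 107 to 316 CPM. The log2 fold change was 0.52 without untreated replicate 1 and 1.29 without untreated replicate 3.

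The remaining complex I mRNAs of the heavy strand, MT-ND1, MT-ND2 and MT-ND3, had the smallest differences of the 13 mRNAs, and their 24 h and untreated libraries overlapped. MT-ND1 (chrM:3307-4262) had 395, 271 and 466 CPM in untreated cells, 446, 244 and 478 CPM after 8 h, and 507, 444 and 466 CPM after 24 h. MT-ND2 (chrM:4470-5511) had 562, 512 and 763 CPM, then 665, 409 and 773 CPM, then 917, 684 and 814 CPM. MT-ND3 (chrM:10059-10404) had 226, 165 and 195 CPM, then 204, 126 and 209 CPM, then 255, 213 and 256 CPM. Their log2 fold changes at 24 h were 0.32 ± 0.24, 0.39 ± 0.22 and 0.31 ± 0.18 (SE), with adjusted p-values from 0.275 to 0.40 by edgeR. With the block the adjusted p was 0.079 for MT-ND1, 0.0415 for MT-ND2 and 0.0482 for MT-ND3. Without untreated replicate 2 the log2 fold change was 0.13 for MT-ND1 and 0.20 for MT-ND3, and without untreated replicate 3 it was 0.51 for MT-ND1.

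MT-ND6 (chrM:14149-14673, minus strand), the mRNA of the light strand, had the largest standard error of the 15 at 24 h. It had 96.4, 59.6 and 134 CPM in untreated cells, 137, 50.1 and 183 CPM after 8 h, and 134, 120 and 164 CPM after 24 h. Replicate 2 was the lowest in every group, and the groups overlapped. Its log2 fold change at 24 h was 0.53 ± 0.39 (SE, adjusted p 0.391; with the block 0.62, adjusted p 0.0471, edgeR). It was 0.28 without untreated replicate 2 and 0.84 without untreated replicate 3. Whether strand was used in counting is not given in the sources used here, so MT-ND6 reads and reads of long heavy-strand RNA across the same bases cannot be told apart.

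Complex III, which passes electrons to cytochrome c, has 1 mitochondrial mRNA, MT-CYB (chrM:14747-15887). It had 758, 660.3 and 1004 CPM in untreated cells, 871, 575 and 1046 CPM after 8 h, and 1162, 1210.3 and 1252 CPM after 24 h. The 24 h libraries lay close together and above all others. The log2 fold change was 0.58 ± 0.21 (SE, adjusted p 0.117), and 0.61 with the block (adjusted p 0.00793, edgeR).

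Complex IV, the cytochrome c oxidase that reduces oxygen, has 3. MT-CO1 (chrM:5904-7445) had 1668, 1471 and 2422 CPM in untreated cells, 1933, 1284 and 2477 CPM after 8 h, and 2717, 2890.4 and 2964 CPM after 24 h. MT-CO2 (chrM:7586-8269) had 1121, 789 and 1147 CPM, then 1053, 631 and 1249 CPM, then 1482, 1520.2 and 1663 CPM. MT-CO3 (chrM:9207-9990) had 1373, 934 and 1465 CPM, then 1256, 791 and 1580.3 CPM, then 1699, 1690.3 and 1895 CPM. For each of them all 24 h libraries were above all untreated and 8 h libraries. The log2 fold changes at 24 h were 0.62 ± 0.23, 0.61 ± 0.22 and 0.49 ± 0.23 (SE), with adjusted p-values of 0.130, 0.124 and 0.205, and with the block of 0.00795, 0.00828 and 0.018 (edgeR). For MT-CO3 the log2 fold change was 0.31 without untreated replicate 2.

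ATP synthase has 2, whose coding sequences overlap as shown above. MT-ATP6 (chrM:8527-9207) had 871, 722 and 1113 CPM in untreated cells, 904, 573 and 1172 CPM after 8 h, and 1352, 1268 and 1361 CPM after 24 h. MT-ATP8 (chrM:8366-8572), the shortest mRNA at 207 bases, had 72.7, 87.1 and 136 CPM, then 93.8, 69.4 and 155 CPM, then 155, 146 and 186 CPM. The 24 h libraries of both were above the untreated ones; for MT-ATP8 they overlapped the 8 h ones. Their log2 fold changes at 24 h were 0.56 ± 0.23 and 0.72 ± 0.28 (SE), with adjusted p-values of 0.155 and 0.140, and with the block of 0.0112 and 0.0037 (edgeR).

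At 8 h, no difference from untreated cells was detectable. None of the 15 genes passed edgeR's test at an adjusted p under 0.05, as for 0% of all genes, and none had an unadjusted p under 0.05, where 0.517% of all genes did. For none did the 8 h and untreated libraries separate, where 3.31% of all genes did. The fitted change was above 0 for 11 of the 15, with a median log2 fold change of 0.04 and a range from -0.12 (MT-ND3) to 0.35 (MT-ND6, SE 0.39). The median ran from -0.20 without the 8 h replicate 3 library to 0.25 without the 8 h replicate 2 library, so single libraries set its sign. With the block none passed either.

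Against 8 h, the 24 h level was again fitted higher for all 15 genes, with a median log2 fold change of 0.59 and a range from 0.18 (MT-ND6) to 0.72 (MT-ND5). None had an adjusted p under 0.05 by edgeR, where 4.56% of all genes did, and the smallest was 0.106, for MT-CO2. At an unadjusted p under 0.05 stood 9 of the 15, all higher (13.5% of all genes), and for 9 all 24 h libraries were above all 8 h ones (18.2% of all genes). These values rested on single 8 h libraries. Without 8 h replicate 2 the median was 0.33, with 14 of 15 above 0 and 1 at an unadjusted p under 0.05, and without 8 h replicate 3 the median was 0.82. This comparison shares its 24 h libraries with the one against untreated cells. In edgeR's test for any difference among the 3 groups, none of the 15 had an adjusted p under 0.05 (3.64% of all genes), the smallest was 0.118, and 8 had an unadjusted p under 0.05 (20.4% of all genes).

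Ratios between mitochondrial genes within a library do not depend on scaling between libraries, and for most of them the groups overlapped. The 2 rRNAs together were 6.48% to 9.21% of mitochondrial counts, with means of 7.68% ± 0.639, 7.65% ± 1.09 and 7.90% ± 1.14 (SD, n = 3) at 0, 8 and 24 h. MT-ND6 was 0.962% ± 0.185, 1.17% ± 0.375 and 0.939% ± 0.126 of the heavy-strand mRNA counts. No mRNA's share of all mitochondrial mRNA counts separated the 24 h from the untreated libraries. Against 8 h, the share of MT-ND1 was lower and that of MT-CO2 higher in every 24 h library, and the shares of the other mRNAs overlapped. With 3 libraries per group, some of 13 shares can separate without a true difference, and no test was made. MT-ND1 made up 3.86% ± 0.371 of the mRNA counts at 8 h and 3.17% ± 0.268 at 24 h, and MT-CO2 made up 9.70% ± 0.407 and 10.4% ± 0.311 (SD, n = 3).

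In the pair MT-ND4L and MT-ND4, which overlap on a shared mRNA, the counts of MT-ND4L were 6.31% of those of MT-ND4 in untreated replicate 1 and 10.8% to 11.8% in the 8 other libraries. The same library was the lowest of the 9 for MT-ND5 relative to MT-ND4 (17.1%, against 21.2% to 24.8% elsewhere) and for MT-ATP8 relative to MT-ATP6 (8.35%, against 10.4% to 13.7%). It was the highest of the 9 for MT-ND1 and MT-ND3 relative to MT-ND4 (23.3% and 13.3%) and for MT-RNR1 relative to MT-RNR2 (28.4%). Replicate 1 was also the highest of its group at 8 h and 24 h for MT-ND1 (21.1% and 16.2%) and MT-ND3 (9.61% and 8.18%). The same held for MT-RNR1 (23.1% and 21.7%). For MT-ATP8, replicate 1 was the lowest at 8 h (10.4%), while at 24 h replicates 1 and 2 were level (11.48% and 11.49%). For MT-ND5 replicate 1 was not the lowest at 8 h or 24 h (23.5% and 23.8%). What set untreated replicate 1, or the replicate 1 libraries, apart was not tested. MT-ND1 stood at 15.5% and 17.2% of MT-ND4 in the other untreated libraries, and at 13.3% to 16.2% at 24 h.

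**Figure D4:**
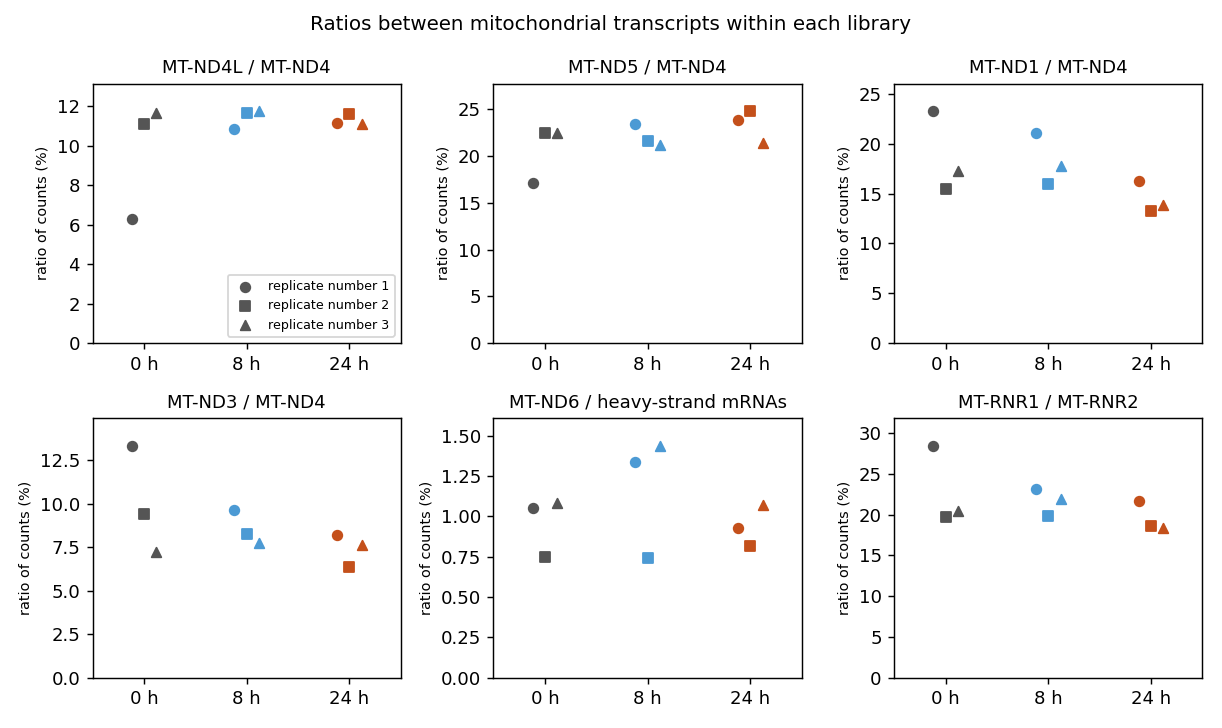
Counts of 1 mitochondrial gene as a percent of another (vertical axes, from 0) in each library at 0, 8 and 24 h; symbols are the replicate numbers. Untreated replicate 1 stands apart for MT-ND4L (6.31% of MT-ND4, elsewhere 10.8% to 11.8%), and the groups overlap in most panels.

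The tRNA rows held few counts: 44 to 143 per library in sum, or 0.0265% to 0.0577% of mitochondrial counts. The annotated tRNA genes are 59 to 75 bases long, and mature tRNAs carry no poly(A) tail, so these counts do not measure the tRNA pool. Of the 6 rows that passed the filter, 5 lie on the light strand: MT-TQ, MT-TA, MT-TS1, MT-TE and MT-TP. The sixth, MT-TI, overlaps the end of MT-TQ on the opposite strand. Since the strand setting is not given, light-strand tRNA reads and reads of heavy-strand RNA across the same bases cannot be told apart either.

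MT-TE, the tRNA gene for glutamate, had 26, 11 and 25 counts in untreated cells, 33, 7 and 25 at 8 h, and 34, 25 and 22 at 24 h. MT-TP, for proline, had 25, 9 and 14 counts, then 27, 8 and 23, then 21, 33 and 26. These were the most counted rows, and replicate 2 was the lowest for both at 0 h and 8 h, as for most of the mRNAs. MT-TI, for isoleucine, had 16, 15 and 13 counts, then 10, 9 and 17, then 16, 9 and 22. MT-TQ, for glutamine, had 13, 7 and 14 counts, then 23, 6 and 17, then 22, 5 and 17. The groups overlapped for both. MT-TS1, a serine tRNA gene, had 9, 10 and 13 counts, then 10, 5 and 12, then 22, 13 and 14. MT-TA, for alanine, had 11, 4 and 6 counts, then 8, 3 and 13, then 11, 3 and 8. None of the 6 passed edgeR's test at 24 h against untreated cells, with or without the block, nor had an unadjusted p under 0.05. The 7 rows below the filter had 13 to 57 counts over all 9 libraries: MT-TT 57, MT-TM 19, MT-TW 18, MT-TF 16, MT-TL1 16, MT-TD 15 and MT-TY 13.

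The nuclear genome holds copies of mitochondrial genes, whose reads an aligner can exchange with those of the originals. The table had 13 such rows with 36706 counts in all, 1.39% of the mitochondrial counts, and 3 of them passed the filter. MTATP6P1, on chromosome 1 (chr1:633696-634376), differs from MT-ATP6 at 10 of 681 bases and held 13.8% to 14.7% as many counts as MT-ATP6 in every library. The first difference between them is shown in capitals, within chrM:8527-8587 and chr1:633696-633756.
MT-ATP6: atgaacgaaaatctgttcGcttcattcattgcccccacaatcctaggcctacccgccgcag
MTATP6P1: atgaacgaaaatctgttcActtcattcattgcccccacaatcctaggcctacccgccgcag

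Their longest identical stretch was 141 bases, so a read could match both. MTATP6P1 differed at 24 h by a log2 fold change of 0.58 (adjusted p 0.126; 0.00582 with the block, edgeR), close to the 0.56 of MT-ATP6. MTND2P28 held 2.88% to 4.03% of the counts of MT-ND2, and MTCO1P12 held 0.0613% to 0.121% of those of MT-CO1. Both had a log2 fold change of 0.52 (adjusted p 0.194 and 0.361). The values of MT-ATP6 and MT-ND2 are therefore uncertain by the counts that lie on these copies.

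Among nuclear genes that act on mitochondrial DNA, RNA and translation, more were lower than higher at 24 h with the block, and 1 was called without it. In 4 lists with 75 entries, of which 72 were tested, edgeR's test without the block called none higher at 24 h, where 2.47% of all genes were higher, and called 1 lower, where 1.77% were. With the block, 1 was higher and 14 lower, where 12.6% of all genes were higher and 11.6% lower. The untreated replicate 1 library was the highest of the 9 for each of those 14 genes, and for 41 of all 72. Without that library the block again gave 14 lower, 12 of them shared with the first 14, and none higher. The count lower fell to 7 without the 24 h replicate 2 library or the untreated replicate 2 library, to 7 without the 8 h replicate 2 or 3 library, to 8 without the 24 h replicate 3 library, and to 3 without the 24 h replicate 1 library. In those fits with 8 or fewer, 5.91% to 8.64% of all genes were lower. With library size alone the count lower was 6, beside 3 higher, where 7.86% of all genes were lower and 17.4% higher.

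Of the 22 tested genes of mitochondrial DNA maintenance and transcription, 9 were fitted above 0 at 24 h, with a median log2 fold change of -0.02. TFAM, which packages mitochondrial DNA and starts its transcription, had 68.6, 79.2 and 77.4 CPM in untreated cells and 82.8, 80.2 and 72.6 CPM after 24 h (log2 fold change 0.07, adjusted p 0.674, edgeR). Its groups overlapped. POLRMT, the mitochondrial RNA polymerase, had 53.6, 40.9 and 46.3 CPM in untreated cells and 37.1, 35.6 and 39.2 CPM after 24 h, all below the untreated values. It differed by -0.33 on the log2 scale (adjusted p 0.108; 0.024 with the block, edgeR). TEFM, the elongation factor of that polymerase, had 12.6, 9.74 and 9.60 CPM and then 7.02, 7.59 and 7.75 CPM, a log2 fold change of -0.51 (adjusted p 0.0632; 0.0167 with the block, edgeR). The other 3 genes of this list that fell with the block were MTERF4, TWNK and SSBP1, named after their values were seen.

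Of the 25 tested genes of mitochondrial RNA processing, stability and decay, 5 were fitted above 0, with a median log2 fold change of -0.11, and 5 fell with the block (ELAC2, SLIRP, FASTKD2, FASTKD5 and MRM3). LRPPRC, which with SLIRP stabilises mitochondrial mRNAs, had 169, 154 and 157 CPM and then 197, 168 and 155 CPM (log2 fold change 0.11, adjusted p 0.504, edgeR; 0.01 without 24 h replicate 1). SLIRP had 75.9, 44.9 and 40.2 CPM and then 41.3, 30.3 and 34.9 CPM, and differed by -0.60 on the log2 scale (adjusted p 0.115; 0.0112 with the block, edgeR), or by -0.28 without untreated replicate 1. The untreated replicate 1 library was the highest for SLIRP, and the groups overlapped.

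The list of tRNA formylation, tRNA modification and translation factors held the gene that passed without the block. TRMU, which adds sulphur to mitochondrial tRNAs, had 196, 140.2 and 147 CPM in untreated cells, 165, 139.8 and 151 CPM after 8 h, and 117, 112 and 105 CPM after 24 h. It fell at 24 h by 0.54 on the log2 scale (SE 0.13, adjusted p 0.0442; 0.00251 with the block, edgeR), and all 24 h libraries were below all others. The call was lost at an adjusted p of 0.0504 to 0.175 without any 1 of 7 libraries, the loss being largest without 24 h replicate 3. In that fit, and in the one without 24 h replicate 2, no gene of the whole table passed. With the block ALKBH1, MTIF2 and TUFM fell as well, and the median of the 19 tested genes was -0.12. MTFMT, which transfers the formyl group to the initiator tRNA, had 16.9, 12.8 and 11.5 CPM and then 13.1, 13.8 and 12.5 CPM, and did not pass (log2 fold change -0.06, adjusted p 0.801; 0.09 without untreated replicate 1).

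Of the 6 tested nuclear regulators of mitochondrial biogenesis, 2 were fitted above 0, and the median log2 fold change was -0.16. NRF1 had 37.6, 36.5 and 32.3 CPM and then 33.4, 28.2 and 28.1 CPM (log2 fold change -0.25, adjusted p 0.173, edgeR). GABPA rose with the block, at an adjusted p of 0.0286, and did not pass without it (0.304, edgeR). It had 22.5, 38.2 and 38.1 CPM and then 34.8, 47.4 and 42.1 CPM, and the groups overlapped. The call with the block was lost without untreated replicate 1 or 2, 8 h replicate 3, or 24 h replicate 1 or 2. At 8 h none of the 72 genes passed with or without the block, and none passed at 24 h against 8 h without it.

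**Figure D5:**
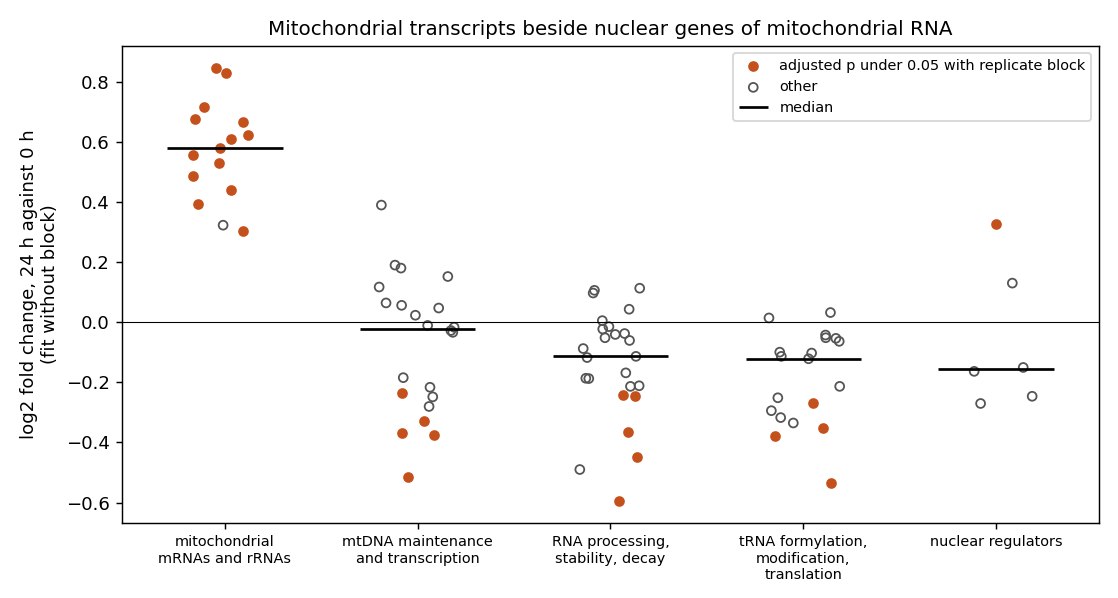
Fitted log2 fold change at 24 h against untreated cells (vertical axis, fit without block) of the 15 mitochondrial mRNAs and rRNAs and of the 4 lists of nuclear genes; filled points had an adjusted p under 0.05 with the replicate block, and lines are medians. The median is 0.58 for the mitochondrial genes and from -0.16 to -0.02 for the nuclear lists.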

How the data were processed

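The authors deposited raw counts per Ensembl gene for the 9 libraries. STAR 2.7.4a, bcl2fastq 2.20.0.422 and the build GRCh38 are named in the submitters' processing notes; the counting program, annotation release and strand setting are not given in the sources used here. Positions, lengths and sequences came from GENCODE release 29, which held 23252 of the 23727 identifiers. Genes on the mitochondrial chromosome and the gene lists were chosen with earlier results of these data known. The table was filtered with filterByExpr (15273 genes kept), scaled with TMM and fitted whole with edgeR 4.0.16 in R 4.3.3 (quasi-likelihood test, 1 mean per group, two-sided, Benjamini-Hochberg over all tested genes, threshold 0.05), after a test on simulated data. CPM used TMM-scaled library sizes.

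The titles' replicate numbers were checked as pairs. Deviations from group means of same-numbered libraries correlated over 15252 nuclear genes at 0.162 to 0.367 (24 h and 0 h), 0.413 to 0.476 (8 h and 0 h) and 0.0318 to 0.423 (24 h and 8 h). The lowest value was at 24 h and 8 h, so the block is given beside results against 0 h. The 24 h replicate 2 library correlated more with untreated replicate 3 (0.272) than with its own number, and more with 8 h replicate 3 (0.138) than with 8 h replicate 2. Its pairing by number is therefore in doubt against both times.

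All mitochondrial rows were named. From each nuclear list, the genes past the threshold at 24 h were named, or else the one with the smallest p, plus TFAM, POLRMT, LRPPRC and MTFMT; other names were chosen after their values were seen. Alternatives were DESeq2 1.42.0, other scalings, no filter, fewer groups, the block and each library left out; the block with other scalings or with a library left out was added after seeing the data. Depth was 22222298 to 25848242 counts.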

Additional observations from a re-analysis of the deposited data

How the results depend on the processing

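The count of the 15 mRNAs and rRNAs that passed at 24 h against 0 h, 0 in the reported fit, was 14 with the replicate block and 2 with DESeq2, and ran from 0 to 3 with a library left out. At 24 h against 8 h it was 12 with the replicate block, 2 with DESeq2 and 3 with only the groups compared. It ran from 0 to 1 with a library left out. Over all tested genes, 3687 passed at 24 h against 0 h with the block and 1656 with DESeq2. At 24 h against 8 h, 3130 passed with the block, 1458 with DESeq2 and 1787 with only the groups compared. With 24 h replicate 2 or replicate 3 left out, no gene of the whole table passed in either comparison without the block. The same held at 24 h against 8 h without 8 h replicate 1. The test for any difference gave 12 with the block and 3 with DESeq2, and from 0 to 1 with a library left out. The share of all genes that passed in those fits was not counted, so these counts have no background beside them. With a library left out, the block's count at 24 h against 0 h ran from 4 to 14 (7.71% to 12.2% of all genes rose). At 24 h against 8 h it ran from 3 to 14 (4.28% to 17.2%). The 3 came without the 8 h or the 24 h replicate 2 library. The lowest correlation of same-numbered libraries was 0.0318 at 24 h and 8 h, and 0.162 at 24 h and 0 h, both for replicate 2. The block changed no call at 8 h. Leaving out each library in turn, log2 fold changes that changed sign ran from -0.014 to 0.112 for TFAM and from -0.176 to 0.092 for MTFMT at 24 h against 0 h (0.019 for MTFMT with library size alone), from -0.201 to 0.566 for MT-ND6 at 24 h against 8 h, and at 8 h against 0 h from -0.234 to 0.077 for MT-ND3 and from -0.032 to 0.729 for MT-ND6. The cause was not tested. The fitted change at 24 h against 0 h stayed above 0 for all 15 genes in every setting run without the block. With library size alone the median of all tested genes was 0.08 and that of the 15 was 0.65. The difference in mitochondrial share moved by less than the SD between replicates in all 30 alternatives. With a library left out, or with the block, arithmetic fixed that outcome for 3 libraries per group. Only the other denominators and the share of the mRNAs alone could have moved it further. The 8 h difference of 0.0215 percentage points was -0.157 without 8 h replicate 3 and 0.198 without 8 h replicate 2. Depth limits the tRNA rows, each with at most 34 counts in a library; each mRNA and rRNA had at least 1146.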
